A study of Rattus norvegicus with 4 samples.

Results

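Integrins are the transmembrane receptors by which cells hold on to extracellular matrix and to each other, and laminins are the trimeric glycoproteins that make up the mesh of the basement membrane. The genes described here are those whose symbol marks an alpha or beta integrin subunit or an alpha, beta or gamma laminin chain, found by a search of the symbols of probe sets annotated to 1 gene. The search found 35 genes among the 14217 with a named probe set. Of these, 22 encode integrin subunits, 10 encode laminin chains, and 3 (Itgb1bp1, Itgb1bp2 and Itgb3bp) share the spelling but encode proteins that bind to integrin tails or are named for it, so they are kept apart. The 4 genes called leukocyte integrins here (Itgal, Itgam, Itgax and Itgb2) are separated from the other 18. Those 18 include Itgad, Itgae and Itgb7, which leukocytes also make. Itga2, Itga4, Itga10 and Itgb8 had no named probe set and are not analysed here.

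The samples were 4 mammary cancers of female Sprague-Dawley rats, an outbred stock, each measured on 1 array. All rats had been given 1 whole-body dose of 0.5 Gy of carbon ions from a beam of 290 MeV/u, with a spread-out Bragg peak (SOBP), the depth over which the dose is laid down, of 6 cm, at 7 weeks of age, and were fed an AIN-76A diet with 23.5% corn oil from an age of 9 weeks. The 4 tumours form 1 group, and the labels do not say whether each came from a separate rat. Unirradiated or normal mammary tissue is not analysed here, so no value measures an effect of irradiation or diet, and with 1 group no test between groups was possible. The comparison the design allows is from tumour to tumour, and it has no replicate check.

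An integrin is a pair of 1 alpha and 1 beta chain, and the pairing sets what it binds. In the mammary gland the alpha6 and alpha3 chains hold myoepithelial and luminal cells to laminin in the basement membrane. The alpha6 chain pairs with beta1 or beta4, and the alpha3 chain with beta1. The beta2 chain, encoded by Itgb2, is made by leukocytes and pairs with the alpha chains of Itgal, Itgam and Itgax. A laminin joins 1 alpha, 1 beta and 1 gamma chain. Trimers with the Lama3 and Lamb3 products lie under stratified and basal epithelium, those with the Lama5 product under most epithelia, and those with the Lama4 product around vessels and in mesenchymal tissue.

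Promoter sequence is shown for 4 genes on which the description below turns. Itgam and Itgax are neighbouring leukocyte integrin genes with 1 probe set each. That of Itgam gave almost no signal, and levels are not compared between genes. Lama3 and Lamb3 encode chains of 1 laminin trimer and had the same order of tumours. Each line gives the 250 bases before the start of the gene, 5′ to 3′ on the gene's strand, from RefSeq with build GRCr8. All 4 genes lie on the plus strand, at chr1:192089342-192089591 (Itgam), chr1:192149799-192150048 (Itgax), chr18:3952517-3952766 (Lama3) and chr13:107362303-107362552 (Lamb3). Capitals mark GAGGAA on either strand, the core letters of sites for PU.1, a transcription factor of myeloid cells, or TGANTCA, the letters of sites for the AP-1 factors, which read alike on both strands.
Itgam: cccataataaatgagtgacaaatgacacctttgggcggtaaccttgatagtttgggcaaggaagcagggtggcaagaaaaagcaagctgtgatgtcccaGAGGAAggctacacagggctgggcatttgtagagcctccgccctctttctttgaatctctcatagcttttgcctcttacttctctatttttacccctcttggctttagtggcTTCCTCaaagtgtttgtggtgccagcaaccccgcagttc
Itgax: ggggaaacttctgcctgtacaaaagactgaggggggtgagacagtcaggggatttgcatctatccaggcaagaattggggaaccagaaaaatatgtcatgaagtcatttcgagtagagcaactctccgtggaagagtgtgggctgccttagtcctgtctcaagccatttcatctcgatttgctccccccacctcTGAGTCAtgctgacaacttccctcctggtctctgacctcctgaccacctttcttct
Lama3: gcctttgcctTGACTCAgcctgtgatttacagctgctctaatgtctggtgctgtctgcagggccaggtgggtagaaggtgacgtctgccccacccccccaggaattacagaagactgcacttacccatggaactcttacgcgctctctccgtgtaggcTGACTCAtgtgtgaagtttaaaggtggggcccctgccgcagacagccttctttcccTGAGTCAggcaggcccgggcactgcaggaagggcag
Lamb3: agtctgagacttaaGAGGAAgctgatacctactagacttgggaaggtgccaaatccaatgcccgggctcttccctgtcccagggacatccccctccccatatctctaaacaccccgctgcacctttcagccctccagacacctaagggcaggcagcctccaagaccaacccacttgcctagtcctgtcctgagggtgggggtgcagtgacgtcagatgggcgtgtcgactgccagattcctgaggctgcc
The Itgam window held 2 matches to GAGGAA, the Lamb3 window 1, and those of Itgax and Lama3 none. TGANTCA was found 3 times before Lama3, 1 time before Itgax, and not in the windows of Itgam and Lamb3. Of 33469 rat promoter windows of this length, 23.3% held GAGGAA and 6.34% held TGANTCA. Windows were held for 24 of the 32 subunit and chain genes, of which 11 had GAGGAA and 2 had TGANTCA. A match is a description of letters and was not set against binding data.

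Values are log2 of the deposited signal plus 16, and a difference of 1 is 2-fold for bright probe sets and understates the change of dim ones. Probe sets differ in brightness for technical reasons, so levels are compared between tumours and never between genes. The median signal of the arrays was 221.9, 203.3, 201.8 and 219.2 in tumours 1 to 4. A gene was used in counts where its mean reached 7.81, the median of all probe sets, a signal of about 209. This left 23 of the 32 subunit and chain genes, 3 of the 4 leukocyte integrins, 11 of the 18 other integrin subunits and 9 of the 10 laminin chains, among 9401 genes in all. Markers of the labelled tissue were present, since all 8 luminal epithelial markers and 7 of 8 basal and myoepithelial markers were above that level.

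Differences of 2-fold between tumours were found among leukocyte integrins and laminin chains, and in none of the 11 other integrin subunits above the filter. The range, from the lowest to the highest tumour, reached 1 log2 in 6 of the 23 genes (26.1%), against 12.4% of all genes above the filter. These were Itgal and Itgax among the leukocyte integrins, and Lama2, Lama4, Lama5 and Lamc3 among the laminins. Among the 11 other integrin subunits the largest range was 0.98, in Itgb6. The median range was 0.80 over the 23 genes, 0.94 over the 9 laminin chains and 0.55 over the 11 other integrin subunits, beside 0.47 over all genes. Tumour 1 was the highest in 9 of the 23 genes, tumour 2 in 5, tumour 3 in 6 and tumour 4 in 3, beside 28.1%, 26.4%, 24.5% and 21.1% of all genes. Without tumour 1 the 23 genes had a median range of 0.47, against 0.32 for all genes, and 2 of 23 (Itgal and Lama2) reached 1 log2, against 5.75% of all genes. Without tumour 4 it was 3 of 23 (Itgal, Itgax and Lama5), against 9.48% of all genes.

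**Figure D1:**
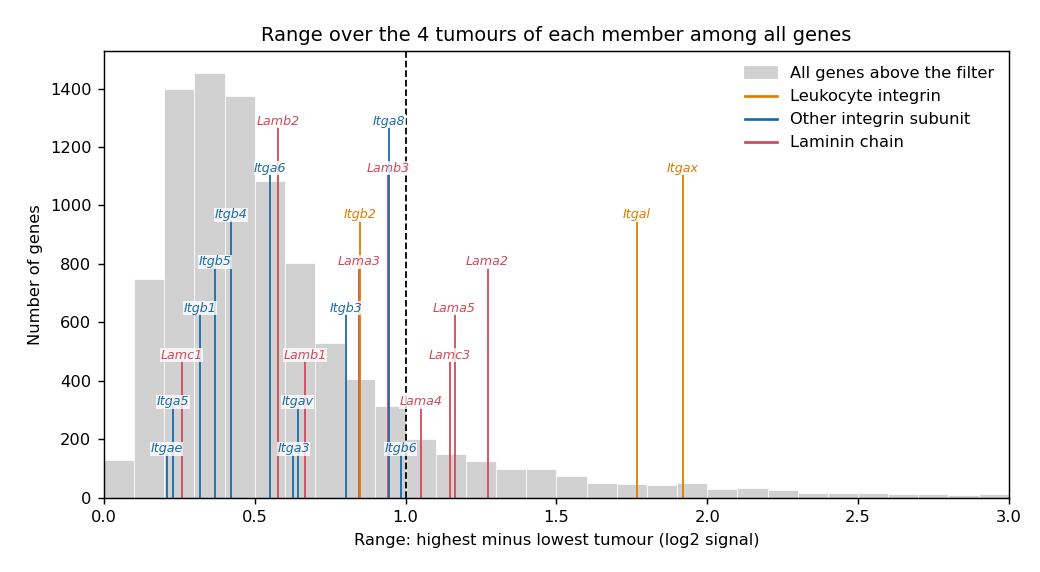
Histogram of the range over the 4 tumours (log2 signal, highest minus lowest) for all 9401 genes above the signal filter, cut at 3 log2, with a vertical line for each of the 23 integrin and laminin genes at its range; the height of these lines only spaces the names. The dashed line marks 1 log2, and 2 leukocyte integrins and 4 laminin chains lie to its right.

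Of the leukocyte integrins, Itgal, Itgax and Itgb2 were highest in tumour 1 and lowest in tumour 3. Itgal, the alpha chain of LFA-1, with which lymphocytes and other leukocytes bind ICAM proteins, measured 10.00, 9.18, 8.24 and 9.31 in tumours 1 to 4. Tumour 1 lay 1.09 above the mean of the others and tumour 3 lay at -1.26 from the mean of the others. Itgax, the CD11c chain of dendritic cells and macrophages, measured 9.62, 8.05, 7.70 and 8.54. Of the 23 genes, only Itgax lay at least 1 log2 higher in tumour 1 than in every other tumour, as did 1.17% of all genes. Its order of tumours was that of Itgal, an order found in 5.74% of all genes. The order was not limited to leukocyte integrins, since Itga8 had it too. With arrays shifted to a common median, Itgal and Itgax kept this order, while tumours 2 and 4 changed places in Itga8.

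Itgb2, the beta chain that the Itgal and Itgax chains share, varied less, with 8.52, 8.41, 7.67 and 8.33 in tumours 1 to 4. It was again highest in tumour 1 and lowest in tumour 3, but tumours 1, 2 and 4 lay within 0.19 of each other, and with the arrays shifted to a common median tumour 2 was the highest. Without tumour 3 its range fell from 0.85 to 0.19, and that of Itgal from 1.77 to 0.83. Without tumour 1 the range of Itgax fell from 1.92 to 0.83. In tumour 3 Itgax and Itgb2 read below 7.81, and the depth of their low there is uncertain.

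Itgam, the CD11b chain of macrophages and neutrophils, gave almost no signal on its probe set, with 22.0, 22.0, 19.5 and 14.4 on the linear scale. Its log2 values lay between 4.93 and 5.25, and differences among them cannot be read. Over all 4 leukocyte integrin genes a tumour's median distance to the average of the remaining 3 was 0.74 in tumour 1, 0.07 in tumour 2, -0.89 in tumour 3 and 0.10 in tumour 4. The medians over all genes above the filter were -0.04, 0.04, 0.03 and -0.02. Without Itgam the values in tumours 1 and 3 were 1.09 and -1.03.

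Markers of macrophages and of leukocytes as a whole moved with these genes. Ptprc, which encodes the pan-leukocyte antigen CD45, measured 9.71, 9.14, 7.89 and 8.82, and Csf1r, the receptor for the macrophage growth factor, 10.70, 9.67, 9.33 and 10.27. All 3 leukocyte markers and 7 of 9 macrophage markers were highest in tumour 1 and lowest in tumour 3. Of all genes above the filter, 28.1% were highest in tumour 1, and 1984 of 9401 were lowest in tumour 3. The other 2 macrophage markers were Cd14, with a range of 0.51, and Cd163, which was under the filter level in every tumour. The summed signal of the macrophage list was 20443, 11762, 9102 and 12330 in tumours 1 to 4. The T and natural killer cell list summed to 1081, 1032, 627 and 1241, with 1 of its 7 genes, Cd3g, above the filter. The B and plasma cell list summed to 2054, 260, 176 and 1873, and of its 3 measured genes 1 was above the filter. This was Jchain, the joining chain of polymeric immunoglobulins, with 10.94, 7.39, 6.68 and 10.74. Its order of tumours was that of Itgal, Itgax and Itga8. The neutrophil list summed to 1070, 126, 134 and 356, and none of its 3 measured genes was above the filter by its mean. In tumour tissue measured as a whole, fewer cells of a type and less RNA per cell cannot be told apart, and the part of cell numbers in these differences was not tested.

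Of the adhesion complex genes, 2 that act on leukocyte integrins are given here, chosen after their values were seen. Fermt3, kindlin-3, the leukocyte form of an integrin tail-binding protein, measured 8.28, 8.04, 6.93 and 8.23. Apbb1ip, the adaptor RIAM, which brings talin to integrins, measured 9.93, 9.74, 8.79 and 10.28. Both were lowest in tumour 3, while the highest tumour was tumour 1 for Fermt3 and tumour 4 for Apbb1ip. Fermt2, kindlin-2, the form of other tissues, stayed between 11.33 and 11.68. Of other genes of integrin activation, Tln1 was lowest in tumour 1 at 10.39, Rap1a highest in tumour 3 at 11.03 and Rap1b lowest in tumour 4 at 11.49. Of the 24 adhesion complex genes above the filter, 8 were lowest in tumour 3, beside 1984 of all 9401 genes. They include Fermt3, Apbb1ip and Tns1, and also Ilk, with a range of only 0.28. Vcl was among them too, with 11.48, 10.89, 10.83 and 10.87, so its tumours 2 to 4 lay close together. Of the cell-surface ligands of leukocyte integrins and of alphaE, 4 of 7 measured genes were above the filter. None of these 4 had a range of 1 log2, against 12.4% of all genes. Icam2, an endothelial ligand of LFA-1, measured 9.20, 8.26, 8.62 and 8.26, and Icam1 measured 9.78, 9.29, 9.36 and 9.80. Cdh1, the E-cadherin bound by alphaE, was lowest in tumour 1, with 11.49, 12.12, 12.25 and 12.36, and F11r, the junction protein JAM-A, lay between 11.60 and 12.23. Vcam1, an adhesion molecule of activated endothelium, had a mean just under the filter and a range of 2.23, with 8.79, 6.56, 8.02 and 7.50.

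**Figure D2:**
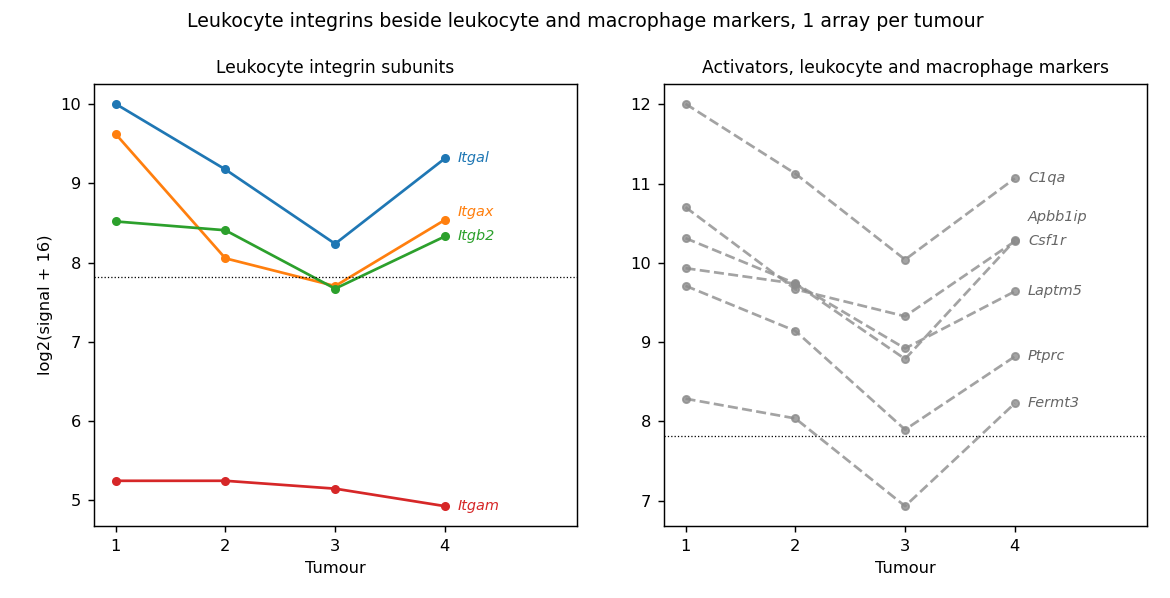
Log2(signal + 16) in tumours 1 to 4 for the 4 leukocyte integrin genes (left) and for the activators Fermt3 and Apbb1ip with leukocyte and macrophage markers (right); lines join the values of 1 gene, the tumours have no order, and the dotted line is the signal filter at 7.81. Itgal, Itgax and Itgb2 are highest in tumour 1 and lowest in tumour 3, as are Ptprc, Laptm5, Csf1r and C1qa, while Itgam lies near 5 throughout.

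The integrin chains that bind laminin were bright in all 4 tumours and differed by less than 2-fold. Itga6, the alpha6 chain of basal and progenitor cells, measured 11.44, 11.99, 11.96 and 11.79, and was lowest in tumour 1. Its 3 probe sets above the filter were each lowest in tumour 1, by -0.47, -0.28 and -0.33 from the mean of the others, while a 4th, dim one was highest there, at 7.10 against 6.78 to 7.03. Itgb4, the beta4 chain that joins alpha6 in hemidesmosomes, measured 11.96, 11.53, 11.63 and 11.83, and was highest in tumour 1, at 0.29 above the mean of the others. The 2 chains of 1 receptor thus had their extremes of opposite sign in tumour 1, with differences that are small and have no replicate check. Itga3, whose product pairs with beta1 and binds the Lama3 and Lama5 laminins, measured 11.25, 11.21, 11.67 and 11.84, higher in tumours 3 and 4 than in tumours 1 and 2. Itga7, a laminin receptor chain of muscle, was under the filter, between 6.93 and 7.61.

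Itgb1, which encodes the beta1 chain shared by most matrix-binding integrins, varied little, with 12.40, 12.53, 12.72 and 12.64. Its range of 0.32 became 0.16 after quantile normalization, where the order of the tumours also changed, and its other bright probe set ran from 11.64 to 11.79. Among the hemidesmosome genes and the tetraspanins that associate with laminin-binding integrins, 1 of 7 had a range of 1 log2 (14.3%, against 12.4% of all genes). This was Col17a1, the transmembrane collagen of hemidesmosomes, with 10.22, 10.53, 9.56 and 11.04. Cd151, a tetraspanin bound to alpha3 and alpha6 integrins, lay between 11.94 and 12.23, Plec, the plectin linker to keratin filaments, between 11.05 and 11.53, and Dst, the dystonin linker, between 11.48 and 11.82.

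Integrins that bind the RGD motif of fibronectin, vitronectin and latent TGF-beta had 6 of 7 measured genes above the filter, and the tumour that stood out was not the same from gene to gene. Itga8, a chain of mesenchymal and smooth muscle cells, measured 11.12 in tumour 1 and 10.26, 10.17 and 10.33 in tumours 2 to 4. The dimmer probe set gave its top reading in tumour 1 too, at 9.38 against 8.47 to 9.02. Without tumour 1 the range of Itga8 fell from 0.95 to 0.15.

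Itgb6, an epithelial chain that pairs with alphaV and activates latent TGF-beta, split the tumours in pairs, with tumours 1 and 3 at 10.34 and 10.46 and tumours 2 and 4 lower, at 9.48 and 9.75. Itgb3, the beta3 chain of platelets, vessels and luminal progenitors, was highest in tumour 2, with 8.66, 9.37, 8.57 and 8.91. Itgav, the alphaV chain that these beta chains share, was highest in tumour 2 and lowest in tumour 3 on its brightest probe set, with 10.58, 10.74, 10.09 and 10.35. Its 2 other probe sets did not show that order, and with all 3 averaged the range fell from 0.64 to 0.27. Itgb5 ranged over 0.37, Itga5, the fibronectin receptor chain, over 0.23, and Itga2b, the platelet chain, was under the filter at 6.93 to 7.23.

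**Figure D3:**
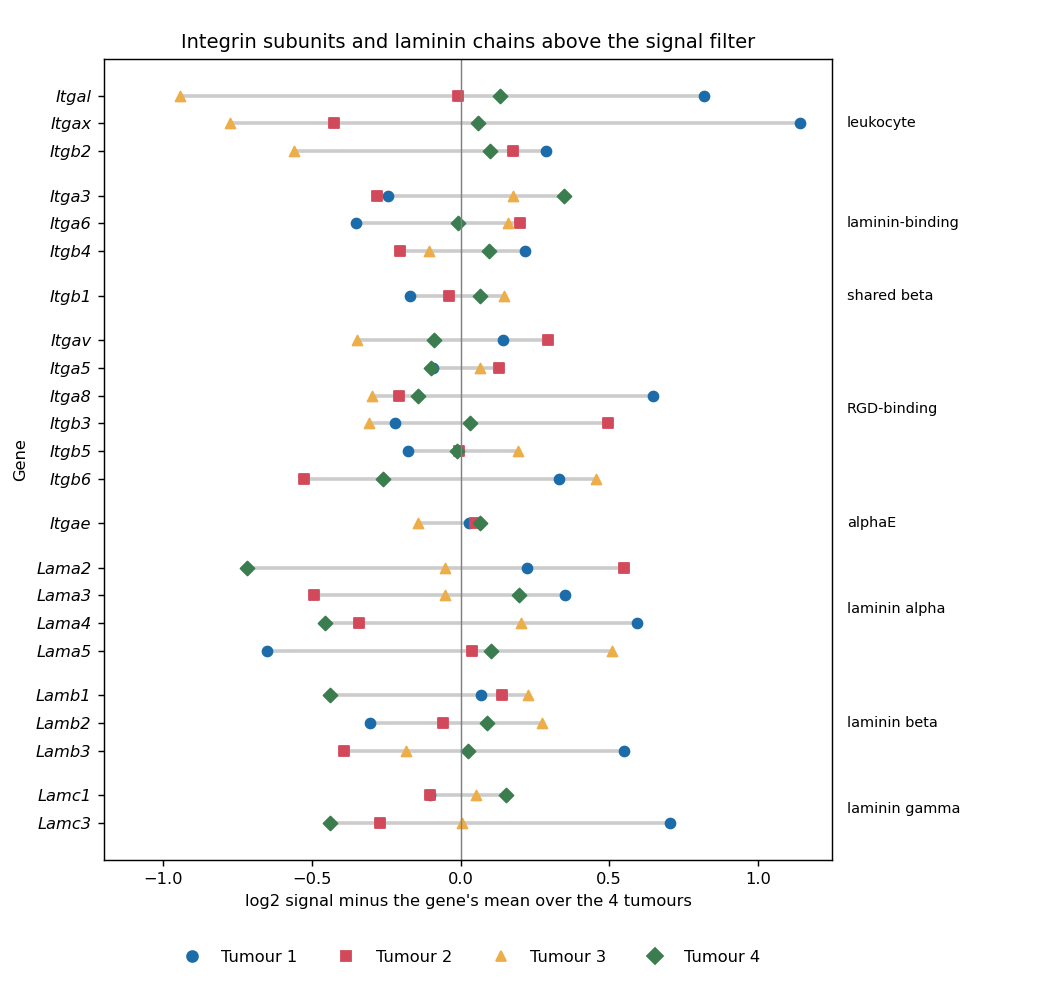
Log2 signal of each of the 23 genes above the filter in tumours 1 to 4, as the difference from the gene's own mean, grouped by what the chain binds or by laminin chain type; grey bars span the range. Tumour 1 lies farthest out for Itgax, Itga8, Lamc3 and, downwards, Lama5, and tumour 3 is the lowest for all 3 leukocyte genes.

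Chains that bind collagen, tenascin or cadherin were mostly dim, as was Itgad, which is not of these groups. Itga1, a collagen receptor chain, had a mean under the filter, but measured 8.70 in tumour 3 against 7.05, 6.28 and 7.67 in tumours 1, 2 and 4. Itga11, a collagen receptor chain of fibroblasts, measured 7.77 in tumour 1 and 5.86, 5.78 and 4.35 in the others, all under the filter level. Itgad, another partner of beta2, measured 7.05 in tumour 1 against 5.39 to 5.91, and Itga9 lay between 6.73 and 7.83. Of the 9 genes under the filter, 5 had a range of 1 log2, but so did 38.1% of all genes under it, and such ranges are read with caution. Itgae, the alphaE chain by which T cells in epithelium hold E-cadherin, stayed between 8.07 and 8.28, and its partner Itgb7 between 6.89 and 7.58.

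Among laminins, the chains of epithelial trimers fell into 2 patterns. Lama3 measured 9.70, 8.85, 9.30 and 9.54 in tumours 1 to 4, and Lamb3 measured 11.56, 10.61, 10.82 and 11.03. Both were highest in tumour 1, then 4, 3 and 2, and Itgb4, whose product is a receptor for their trimer, had the same order. That order was found in 3 of the 23 genes and in 4.04% of all genes above the filter, and it was kept by these 3 genes with arrays shifted to a common median and after quantile normalization. Each has 1 probe set. The order was noticed after the values were seen. The differences were under 2-fold, at 0.47 for Lama3 and 0.73 for Lamb3 between tumour 1 and the mean of the others. None of the basal and myoepithelial markers above the filter had the whole order. Krt14 measured 12.39, 11.34, 8.24 and 11.45 and Tp63 11.46, 10.75, 9.90 and 11.28, highest in tumour 1 and lowest in tumour 3. Krt5, Acta2, Myh11 and Mylk were highest in tumour 4, Cnn1 was highest in tumour 2, and Acta2 and Cnn1 were lowest in tumour 1. Over the 7 markers above the filter the median difference of tumour 1 was -0.02, and the summed signal of the list of 8 was 27511, 27010, 20912 and 32117. Lama3 and Lamb3 were lowest in tumour 2, as was Krt5, which measured 12.94, 12.82, 12.83 and 13.09.

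Lama5 ran in the other direction, with 10.72, 11.41, 11.88 and 11.47. It was lowest in tumour 1, at -0.87 from the mean of the others, and highest in tumour 3. Lamb2, a beta chain that can join the Lama5 product, measured 10.88, 11.13, 11.46 and 11.28, in the same order as Lama5 and Itgb1, an order shared by 6.33% of all genes. Shifting the arrays to a common median exchanged the middle tumours of Lama5. The other 2 probe sets of Lama5 were dim, at most 7.45, and with all 3 averaged tumour 3 was still the highest but tumour 2 was the lowest, and the difference of tumour 1 was -0.23. Luminal markers were likewise low in tumour 1, among them Krt8, a luminal keratin, with 12.43, 13.15, 13.25 and 13.18, and Epcam, an epithelial adhesion protein, with 12.89, 13.23, 13.70 and 13.39. Of the 8 luminal markers, 7 were lowest in tumour 1 and Elf5 was highest there, while 3400 of all 9401 genes above the filter were lowest in tumour 1. The summed signal of the luminal markers was 29796, 53678, 63194 and 52662. The part of the luminal share in the Lama5 values was not tested. Lamc1, the gamma chain of most laminins, hardly varied, with 11.84, 11.84, 12.00 and 12.10.

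The remaining laminin chains above the filter, Lama2, Lama4, Lamb1 and Lamc3, were lowest in tumour 4, by unlike margins. Tumour 4 lay 0.67 under the next tumour for Lama2 and 0.51 for Lamb1, but only 0.115 for Lama4 and 0.168 for Lamc3. Lama4 measured 11.04, 10.10, 10.64 and 9.98, highest in tumour 1 and lowest in tumour 4. Its dimmer probe set showed little of this, with 7.89, 7.61, 8.00 and 7.87, and with both averaged the range fell from 1.05 to 0.61 and tumour 2 was the lowest. Lama2, the alpha chain of muscle and mesenchymal basement membranes, measured 8.20, 8.53, 7.92 and 7.26. It was highest in tumour 2, and without tumour 4 its range fell from 1.27 to 0.61. Lamb1, the beta chain of many non-epidermal laminins, measured 10.24, 10.31, 10.40 and 9.73, so that tumour 4 alone stood below. Lamc3, a gamma chain of restricted distribution, was highest in tumour 1, with 8.74, 7.76, 8.04 and 7.59, and without tumour 1 its range fell from 1.15 to 0.45. In tumour 4 Lama2 and Lamc3 read below 7.81, as did Lamc3 in tumour 2, and the depth of these lows is uncertain. Lama1, an alpha chain of early embryonic basement membranes, was under the filter except in tumour 3, at 8.51 against 7.11 to 7.41.

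Markers of fibroblasts and vessels are given beside these chains. All 6 fibroblast markers were lowest in tumour 4, beside 2363 of all 9401 genes above the filter. Among them were Pdgfra with 11.90, 10.02, 10.74 and 8.54 and Col1a1 with 12.42, 12.65, 13.25 and 10.98. The summed signal of the fibroblast markers was 37745, 29348, 34578 and 11830 in tumours 1 to 4. The endothelial list summed to 2066, 1288, 2073 and 1457, with Kdr, the VEGF receptor, at 9.43, 8.69, 9.33 and 8.67, and the pericyte list to 1723, 580, 1032 and 890. Lama4 was high in tumours 1 and 3, as were the endothelial markers Kdr, Tek and Emcn. The endothelial markers Vwf and Pecam1, the latter with a mean under the filter, were instead highest in tumour 4, where Lama4 was lowest. The part of fibroblasts or of vessel cells in the laminin values was not tested.

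**Figure D4:**
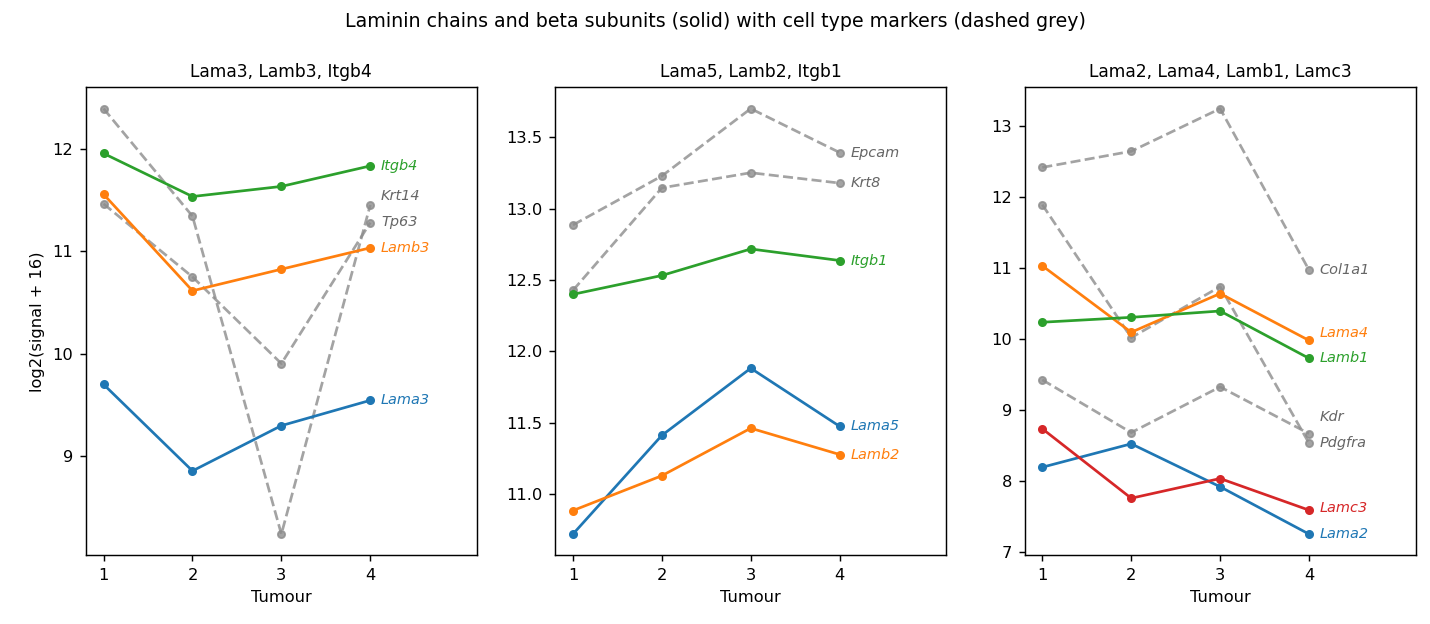
Log2(signal + 16) in tumours 1 to 4 for laminin chains and beta integrin subunits (solid) and cell type markers (dashed grey), in 3 panels; lines join the values of 1 gene, the tumours have no order, and heights are not comparable between genes. Lama3, Lamb3 and Itgb4 are lowest in tumour 2 (left), Lama5, Lamb2 and Itgb1 are lowest in tumour 1 (middle), and Lama2, Lama4, Lamb1 and Lamc3 are lowest in tumour 4 (right).

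Among the other components of the basement membrane and the matrix ligands of integrins, 5 of 14 measured genes above the filter (35.7%) had a range of 1 log2, against 12.4% of all genes. Tnc, tenascin-C, a ligand of alpha8 and alpha9 integrins, measured 10.69, 11.05, 10.22 and 7.81, and Fn1, fibronectin, 12.31, 11.81, 12.78 and 10.55. Both were lowest in tumour 4. Spp1, osteopontin, an RGD ligand made by macrophages and tumour cells, measured 9.81, 11.19, 8.30 and 9.46. Col18a1, a basement membrane collagen, measured 12.27, 11.18, 12.19 and 10.82, with tumours 1 and 3 high. Nid2, a nidogen that links laminin to collagen networks, measured 9.13, 7.85, 9.11 and 8.44, also with tumours 1 and 3 high. Bcam, a laminin receptor, and Col4a5 ranged over 0.93 and 0.85. Col4a1 and Col4a2, the main collagen chains of basement membranes, ranged over 0.35 and 0.40, and Hspg2 and Agrn, the heparan sulfate proteoglycans perlecan and agrin, over 0.13 and 0.16.

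The cytoplasmic adhesion complex links integrins to actin. Of 24 measured genes above the filter, 3 had a range of 1 log2 (12.5%, against 12.4% of all genes). Besides Fermt3 and Apbb1ip this was Tns1, tensin-1, with 10.49, 9.53, 8.69 and 9.29, highest in tumour 1 and lowest in tumour 3. Tln2, talin-2, followed with a range of 0.93, and was lowest in tumour 1 at 7.88. The kinase-scaffold gene Ilk stayed between 10.54 and 10.82 and Tln1, talin-1, between 10.39 and 10.88. Of the 3 genes that share the spelling of beta subunits, Itgb1bp1 ranged over 0.27, Itgb3bp, a centromere protein, over 0.56, and Itgb1bp2, a muscle protein, was under the filter at 6.54 to 7.00.

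Separate probe sets of 1 gene gave the only internal check, and they share RNA, labelling and array. Of the 32 genes, 22 had 1 probe set, among them Itgal, Itgax, Itgb2, Lama2, Lama3, Lamb3 and Lamc3. In 7 genes at least 2 probe sets were above the filter. The 2 brightest had the same highest tumour in 4 of the 7 genes (Itga6, Itga8, Itgb5 and Lamc1) and the same lowest tumour in 1, Itga6. Of these 7 genes, only Lama4 had a range of 1 log2 on its brightest probe set.

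**Figure D5:**
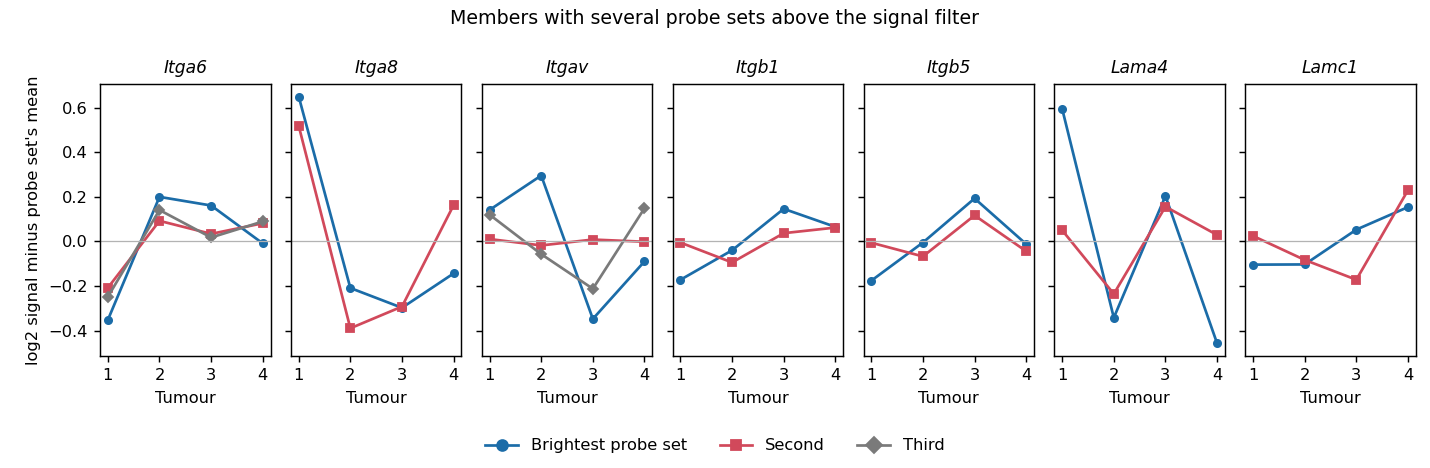
Log2 signal of each probe set above the filter, as the difference from its own mean over the 4 tumours, for the 7 genes with at least 2 such probe sets; lines join the values of 1 probe set. The probe sets of Itga6 are all lowest in tumour 1 and those of Itga8 highest there, while the second Lama4 probe set spans 0.39 in all.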

How the data were processed

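Transcript levels of 4 rat mammary cancers were measured on 1-colour arrays. Per the labels' protocols, cRNA was made from 8 µg of total RNA with an oligo-dT primer, which favours the 3' end of transcripts. The authors deposited linear intensity values for 31099 probe sets. How they scaled the arrays is not stated (not given in the sources used here), but each array averaged 500.1 once 2% of values at each end were trimmed. Detection calls were not used. Precision is limited by the number of arrays.

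Intensities were used as deposited, as log2(value + 16). Probe sets were named from the platform annotation: 20826 named 1 gene, 436 several and were left out, 9780 were unnamed, and 57 controls were left out. Gene identifiers of 20758 were found in the RefSeq table of GRCr8, with symbols as annotated. A gene with several probe sets was represented by that of highest mean. The filter was the median of probe-set means. Genome coordinates come from the RefSeq promoter table alone. No test was run, since the samples form 1 group, and differences were described by a range of at least 1 log2 beside the share of all genes. Each integrin and laminin gene is named, and of each companion list the 4 genes of largest range above the filter, with further genes of these lists added after their values were seen. The members and lists were chosen with earlier results of these data known. Alternatives were pseudocounts of 1 and 64, a common median, quantile normalization, averaged probe sets, no filter, the brighter 25% and leaving out each tumour. The range rule was tested on simulated data. Python 3.11.15, numpy 2.4.6, pandas 2.3.3 and matplotlib 3.10.9 were used.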

Additional observations from a re-analysis of the deposited data

Results flagged for a closer look

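Of 39 genes checked for a tumour far from the others (the 23 integrin and laminin genes above the filter and the named companion genes), 2 had a gap larger than Dixon's 95% critical value for 4 samples, as had 5.63% of all genes above the filter, and chance flags about 1 in 20. In Itga8 the gap between tumour 1 and the next tumour was 0.837 of the whole range, with 11.12 in tumour 1 and 10.17 to 10.33 elsewhere. The check used its brightest probe set only. On the dimmer one, with 9.38, 8.47, 8.57 and 9.02, tumour 4 lay nearer to tumour 1 than to tumours 2 and 3. In Itgae the gap between tumour 3 and the next tumour was 0.835 of the whole range, but that range was 0.21.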

How the results depend on the processing

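The leukocyte integrin differences kept their sign under every alternative that gave a value, from 0.46 to 0.89 in tumour 1 and from -1.07 to -0.65 in tumour 3 when 1 tumour was left out. None of the 4 genes was in the brighter 25% of probe sets, so that alternative gave no value for them, and a tumour's own difference has none without it. A 2-fold range was found in 6 genes. This count became 5 with a pseudocount of 64 (10.6% of all genes) and 7 after quantile normalization (12.5% of all genes). It became 11 of 32 with no filter (21.1% of all genes) and 2 of 14 in the brighter 25% (8.99% of all genes). With probe sets averaged it was 4 (11.7% of all genes). When 1 tumour was left out it was 2 to 5 (5.75% to 10.2% of all genes), lowest without tumour 1. The median range then lay between 0.47 and 0.64, and the number of genes above the filter at 22 or 23. Without Itgam, an alternative chosen after seeing the data, the differences were 1.09 and -1.03. Of 176 further values of single-gene ranges under an alternative that could change them, 20 moved by more than the SD between tumours, and of 144 differences 2 did, both with probe sets averaged, and none changed sign. The causes were not tested. No paired analysis was possible because the tumours form 1 group. Values near 5 log2, such as those of Itgam, have no readable order, and genes near the filter have uncertain differences.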
